A study of Homo sapiens with 10 samples.

Results

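The genes described are 29 genes of cholesterol and fatty acid synthesis and of their control by the SREBP transcription factors, chosen by their symbols from a table of 23284 genes. They comprised 16 enzymes that build cholesterol, 5 genes that control the pathway or carry sterol, and 8 enzymes of fatty acid synthesis. All 29 had a row in the table, and all 29 passed the filter on low values described further on. Expression was measured by RNA-seq in K562 cells, an established human myelogenous leukemia line with erythroid features. For 48 h the cells received DMSO as vehicle, CBP30 at 2 µM or 5 µM, or I-CBP112 at 2 µM or 5 µM. Both compounds bind the bromodomains of the acetyltransferases CREBBP and EP300, and no sample was labelled with a genetic change beyond those of the line. There were 2 biological replicates for each of the 5 conditions, 10 samples in total.

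Cholesterol is made from acetyl-CoA through mevalonate, the isoprenoids, squalene and lanosterol. Fatty acids are made from the same precursor, which is carboxylated, extended by fatty acid synthase and then desaturated or elongated. Both branches are transcribed under SREBP factors. These are held in the endoplasmic reticulum by SCAP and the INSIG proteins when sterol is plentiful and released to the nucleus when it is scarce.

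Values were deposited as FPKM, fragments scaled to library size and transcript length, so levels of different genes can be compared per length. The unit keeps no counts, and sequencing depth was therefore unknown. Treatments were compared with limma on log2(FPKM + 1) in 12788 genes whose mean reached 0.5 FPKM. Fold changes are given on that scale, on which low genes appear to change less than they do. A gene was called significant at a Benjamini-Hochberg adjusted p under 0.05 over all genes tested. All treatments were compared with the same DMSO samples, so the comparisons with DMSO are not independent of each other.

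The libraries summed to between 547504 and 689095 FPKM. Replicate 1 of 2 µM CBP30 stood apart from the rest: EEF1A1, an abundant translation elongation factor, was listed at 0 there but at 5338 to 6661 FPKM elsewhere. Relative to the mean of the other libraries, its values also ran against transcript length (Spearman's rho = −0.587 over 12130 genes, against −0.0486 in replicate 2). Counts of the 29 genes with 2 µM CBP30, and fold changes of the called genes to DMSO, are therefore also given without this library. In the 5 µM CBP30 samples rho was 0.335 and 0.334. With 2 µM I-CBP112 it was 0.222 and −0.0163, and in the remaining samples between −0.0815 and 0.0798. All 10 erythroid markers looked for were detected in every sample. Their summed level was 1840 to 1880 FPKM with DMSO, 594 to 766 with 2 µM and 542 to 569 with 5 µM CBP30, and 987 to 1170 with I-CBP112. The globin genes HBZ, HBG2 and HBG1 led the sum (means of 609, 439 and 255 FPKM with DMSO). With 5 µM CBP30, 9 of the 10 were called lower (90.0%, against 25.4% of all genes tested). TAL1 was called higher, from 17.4 in both controls to 23.4 and 24.2 FPKM (0.43, limma adjusted p = 0.00127). Of 14 markers of other cell types, CD2, MS4A1 and CDH5 were at 0 in every sample, and the list summed to 294 to 298 FPKM with DMSO, 373 to 488 with 2 µM and 448 to 458 with 5 µM CBP30, and 342 to 390 with I-CBP112. Most of the rise was KRT8, at 197 and 194 FPKM with DMSO and 365 and 371 with 5 µM CBP30, while EPCAM went down from 59.7 and 58.6 to 31.8 and 33.0. These shifts moved with the treatments, and their part in the results below was not tested. In bulk RNA, fewer cells of a state and less RNA per cell cannot be told apart.

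The promoters of the genes that moved most are shown first, since the pathway is known for control at the promoter. RefSeq (GRCh38.p14) had a promoter for 25 of the 29 genes, and the 250 bases before the start were read. The windows below are those of the 4 genes with the highest fold changes with 5 µM CBP30 and of FADS1, the gene with the lowest. Each is written 5′ to 3′ on the strand of the gene, and capitals mark CCAAT, the box of the factor NF-Y, and CACGTG, the E-box, on either strand. The windows are INSIG1 at chr7:155297628-155297877 (plus strand), TM7SF2 at chr11:65111622-65111871 (plus), STARD4 at chr5:111512536-111512785 (minus), LSS at chr21:46228775-46229024 (minus) and FADS1 at chr11:61817004-61817253 (minus).
INSIG1: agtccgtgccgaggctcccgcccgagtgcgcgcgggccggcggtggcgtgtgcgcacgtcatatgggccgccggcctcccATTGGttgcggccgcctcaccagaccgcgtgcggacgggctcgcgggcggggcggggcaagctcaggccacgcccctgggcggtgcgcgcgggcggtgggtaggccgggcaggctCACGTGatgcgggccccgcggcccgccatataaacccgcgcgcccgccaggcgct
TM7SF2: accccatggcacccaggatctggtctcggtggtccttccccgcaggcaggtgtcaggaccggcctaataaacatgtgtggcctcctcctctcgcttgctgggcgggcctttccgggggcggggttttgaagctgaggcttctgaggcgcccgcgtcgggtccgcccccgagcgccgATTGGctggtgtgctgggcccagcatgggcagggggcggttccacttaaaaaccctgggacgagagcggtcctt
STARD4: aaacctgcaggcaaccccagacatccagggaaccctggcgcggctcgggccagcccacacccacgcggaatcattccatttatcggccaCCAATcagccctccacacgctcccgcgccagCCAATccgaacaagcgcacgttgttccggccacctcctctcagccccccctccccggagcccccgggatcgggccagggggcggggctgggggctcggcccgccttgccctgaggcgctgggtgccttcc
LSS: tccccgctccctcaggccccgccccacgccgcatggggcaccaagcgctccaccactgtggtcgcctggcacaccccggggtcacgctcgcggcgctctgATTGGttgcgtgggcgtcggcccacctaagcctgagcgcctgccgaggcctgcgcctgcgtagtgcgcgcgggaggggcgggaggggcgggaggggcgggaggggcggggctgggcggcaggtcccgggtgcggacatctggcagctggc
FADS1: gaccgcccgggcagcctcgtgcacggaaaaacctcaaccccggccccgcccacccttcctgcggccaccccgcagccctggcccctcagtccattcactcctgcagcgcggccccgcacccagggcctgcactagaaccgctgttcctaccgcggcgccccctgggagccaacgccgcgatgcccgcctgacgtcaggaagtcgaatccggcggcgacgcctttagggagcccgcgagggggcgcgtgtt

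The INSIG1 window held 1 CCAAT box and 1 E-box, the STARD4 window held 2 CCAAT boxes, and the TM7SF2 and LSS windows held 1 each. The FADS1 window held neither set of letters. Over the 25 windows, CCAAT was present in 16 (64.0%), against 33.0% of 27305 promoters in the table. The window of NSDHL held CCAAT, and this gene was called lower with the higher concentration of CBP30. FDPS, MVK, MVD, ACLY, SREBF2 and EBP had it too and were not called there. The rest of the genes with CCAAT were called higher. IDI1, SCAP and CYP51A1 were also called higher, but their windows lacked it. Whether CCAAT goes with the response was not tested. The GC box GGGCGG, whose matches are left in lower case, was present in 23 (92.0%), against 42.3%. CACGTG was in 2 windows (8.0%, those of INSIG1 and SCAP), against 6.49%. The sterol regulatory element TCACNCCAC was found in 1 (SREBF2, 133 bases before the start), against 0.875%. All 4 were searched on both strands, and no capital letters of one motif were shared with another. These are matches of letters and not shown sites, and the members were not drawn at random.

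In DMSO-treated cells the 29 genes had a median of 32.1 FPKM, against 11.7 over all genes tested. FDFT1, squalene synthase, was the highest at 149 ± 0.242 FPKM (SD, n = 2), next to SCD, the stearoyl-CoA desaturase, at 144 ± 4.30. FDPS, which makes farnesyl diphosphate, followed at 101 ± 0.817 FPKM. The lowest were TM7SF2, a sterol C14 reductase, at 4.60 ± 0.241 and HSD17B7, a sterol ketoreductase, at 4.65 ± 0.108, which did not differ beyond their spread. Levels were read from the deposited units and carry any error of the transcript lengths used.

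**Figure D1:**
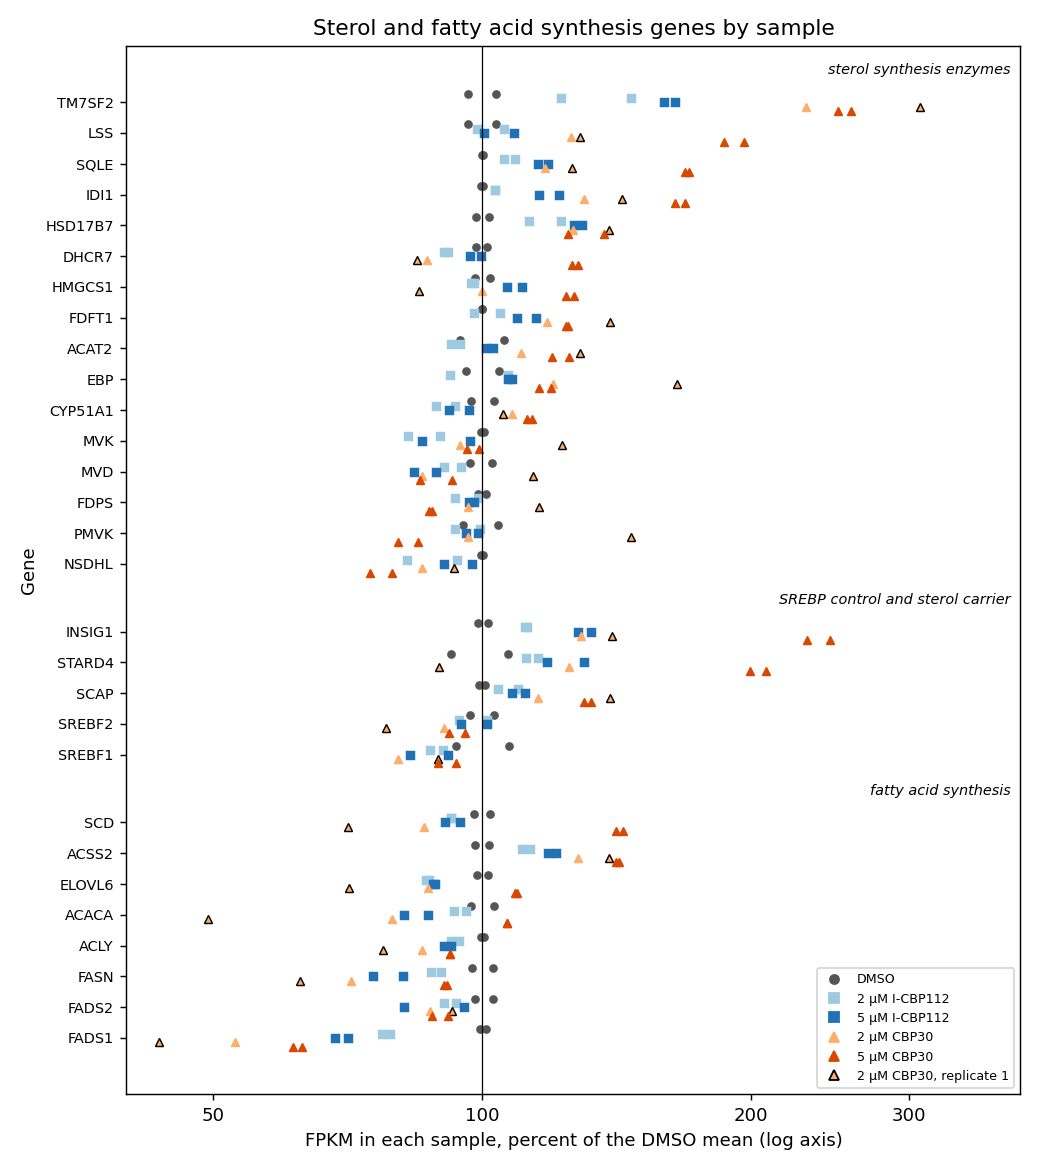
FPKM of each of the 29 genes in each of the 10 samples as a percentage of its DMSO mean (log axis), in 3 groups by role, each ordered by the mean with 5 µM CBP30; symbols are single samples and a black edge marks replicate 1 of 2 µM CBP30. TM7SF2, INSIG1 and STARD4 lie farthest to the right with 5 µM CBP30 (255%, 238% and 204% of DMSO) and FADS1 farthest to the left (62.1%).

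Most of the cholesterol branch rose with 5 µM CBP30. Of the 29 genes, 15 were higher and 2 lower (51.7% and 6.90%), while 21.2% of all genes tested were higher and 25.4% lower. Their median log2 fold change was 0.23, against −0.01 over all genes tested. By role, 10 of 16 sterol enzymes rose and 1 fell, 3 of 5 control genes rose and none fell, and 2 of 8 fatty acid genes rose and 1 fell.

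Among the control genes, INSIG1, which retains the SREBP–SCAP complex and is itself a classic SREBP target, had the highest fold change. It was at 19.5 and 20.0 FPKM with DMSO and at 45.5 and 48.3 with 5 µM CBP30, a log2 fold change of 1.21 ± 0.0555 (SE, adjusted p = 1.12e-05). Both treated samples lay above both controls with no overlap. STARD4, a carrier of sterol between membranes, went from 13.2 and 15.3 FPKM to 28.5 and 29.7 (0.98 ± 0.142, adjusted p = 0.00133). SCAP, the escort of SREBP, went from 24.0 and 23.6 to 31.5 and 30.9 FPKM (0.37 ± 0.0822, adjusted p = 0.00847). The genes of the factors themselves were not called: SREBF1 was at 29 and 25.3 FPKM with DMSO and 25.3 and 24.2 with 5 µM CBP30 (−0.12, 95% interval −0.32 to 0.08), and SREBF2 at 51.1 and 48.1 against 47.5 and 45.5 (−0.09, −0.28 to 0.10). The controls and treated samples of SREBF1 met at 25.3, while those of SREBF2 were next to each other at 48.1 and 47.5.

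Of the enzymes before squalene, IDI1, the isopentenyl diphosphate isomerase, rose the most. It was at 36.1 and 36.3 FPKM with DMSO and 61.0 and 59.5 with 5 µM CBP30 (0.72 ± 0.0570, adjusted p = 9.62e-05). HMGCS1, which makes HMG-CoA, went from 50.0 and 52.0 to 63.3 and 64.6 FPKM (0.32, adjusted p = 0.0113), and ACAT2, which makes acetoacetyl-CoA, from 29.1 and 32.6 to 36.9 and 38.5 (0.28, adjusted p = 0.0268). The kinases and the decarboxylase of the mevalonate steps were not called. MVK was at 7.25 and 7.19 FPKM with DMSO and 7.16 and 6.94 with 5 µM CBP30, PMVK at 19.8 and 18.1 against 16.1 and 15.3, and MVD at 23.0 and 21.7 against 20.7 and 19.1. Their log2 fold changes were −0.03, −0.26 and −0.16 (adjusted p = 0.243 to 0.85). FDPS was at 100 and 102 FPKM against 88.8 and 88.1 (−0.19, 95% interval −0.38 to 0.0042, adjusted p = 0.0986).

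Of the 9 enzymes from squalene synthase on, 7 rose, 1 fell and 1 was not called. SQLE, squalene epoxidase and a rate-limiting step, was at 60.0 and 59.8 FPKM with DMSO and 101 and 102 with 5 µM CBP30 (0.75 ± 0.0486, adjusted p = 4.18e-05). LSS, which closes the sterol rings, went from 7.44 and 6.94 to 13.4 and 14.1 FPKM (0.85 ± 0.0642, adjusted p = 7.68e-05). TM7SF2 went from 4.77 and 4.43 to 11.9 and 11.5 (1.18 ± 0.129, adjusted p = 0.000383). In each of these the treated samples stood clear of the controls.

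DHCR7, the last reductase of one route to cholesterol, went from 33.6 and 32.7 to 41.8 and 42.5 FPKM (0.34, adjusted p = 0.00079). FDFT1 went from 149 in both controls to 185 and 186 (0.31, adjusted p = 0.0154), HSD17B7 from 4.73 and 4.58 to 5.80 and 6.37 (0.33, adjusted p = 0.00792) and CYP51A1, the lanosterol demethylase, from 50.9 and 54.0 to 58.8 and 59.6 (0.17, adjusted p = 0.0311). EBP, a sterol isomerase, was at 38.8 and 42.3 against 46.9 and 48.3 and was not called (0.23, 95% interval −0.11 to 0.56). NSDHL, a sterol dehydrogenase, fell from 39.3 and 39.5 to 29.5 and 31.2 FPKM (−0.37 ± 0.0758, adjusted p = 0.0065). Its treated samples lay well below both controls. Without either replicate of 2 µM CBP30, PMVK, MVD and FDPS were called lower as well (largest adjusted p = 0.0448), and PMVK and FDPS also in a fit of only the groups compared (0.0275 and 0.00376).

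The fatty acid branch was not set apart from all genes tested: 25.0% of its genes were higher and 12.5% lower, against 21.2% and 25.4%. Its median log2 fold change was −0.01. SCD rose from 141 and 147 to 203 and 207 FPKM (0.51 ± 0.0852, adjusted p = 0.00262), and ACSS2, which makes acetyl-CoA from acetate, from 16.5 and 17.1 to 23.7 and 23.9 (0.48 ± 0.0522, adjusted p = 0.000383). FADS1, the delta-5 desaturase of polyunsaturated fatty acids, fell from 46.6 and 47.3 to 28.8 and 29.5 FPKM (−0.67 ± 0.0828, adjusted p = 0.000659). Its neighbour FADS2, the delta-6 desaturase, was at 11.1 and 10.6 against 9.88 and 9.50 and was not called (−0.15, 95% interval −0.33 to 0.03). FADS1 (chromosome 11, 61567099 to 61596790 of GRCh37, minus strand) lies within the span of FADS2 (61560452 to 61634826, plus strand).

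The core of the fatty acid branch did not pass the test in the main fit at this concentration. ACLY, which makes cytosolic acetyl-CoA, was at 74.6 and 75.1 FPKM with DMSO and 68.9 in both samples with 5 µM CBP30 (−0.12). ACACA, acetyl-CoA carboxylase, was at 16.4 and 17.4 against 18.0 in both (0.09). FASN, fatty acid synthase, was at 66.5 and 63.0 against 59.1 and 58.7 (−0.13), and ELOVL6, an elongase, at 31.7 and 32.6 against 34.9 and 35.1 (0.12). The adjusted p of the 4 was between 0.12 and 0.71. A fit of only the groups compared called 6 of the 29 genes lower. NSDHL, PMVK and FDPS were the sterol enzymes among them, and the rest, with FADS1, were control or fatty acid genes.

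Of the 17 calls with 5 µM CBP30, 11 were kept in every alternative and with every library left out in turn. They were INSIG1, STARD4, IDI1, SQLE, LSS, TM7SF2, DHCR7, NSDHL, SCD, ACSS2 and FADS1. The other 6 were lost with a single library left out: CYP51A1 and ACAT2 without DMSO replicate 1 (adjusted p = 0.168 and 0.156) or either 5 µM CBP30 sample (0.0755 to 0.131), FDFT1 without any DMSO or 5 µM CBP30 sample (0.0674 to 0.0761), HMGCS1 without DMSO replicate 1 (0.0705) or 5 µM CBP30 replicate 2 (0.0655), HSD17B7 without 5 µM CBP30 replicate 2 (0.0615) and SCAP without 5 µM CBP30 replicate 1 (0.0525). Across the 29 genes, Spearman's rho of the fold change with transcript length was 0.0581 (a description, since the genes share libraries). The median was 0.10 for the 12 genes over 4000 nt and 0.28 for the 17 shorter ones. With the length trend of each library removed, rho was −0.199 and the medians were −0.01 and 0.40. In that fit 16 of the 29 were higher and 4 lower (55.2% and 13.8%), against 3307 higher and 3403 lower of the 12130 genes with a length. On GRCh37, INSIG1 lies on chromosome 7 from 155089486 to 155101945, STARD4 on chromosome 5 from 110831731 to 110848288, TM7SF2 on chromosome 11 from 64879317 to 64883856 and LSS on chromosome 21 from 47608055 to 47648738. SCD lies on chromosome 10 from 102106990 to 102124583 and NSDHL on chromosome X from 151999511 to 152038273.

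**Figure D2:**
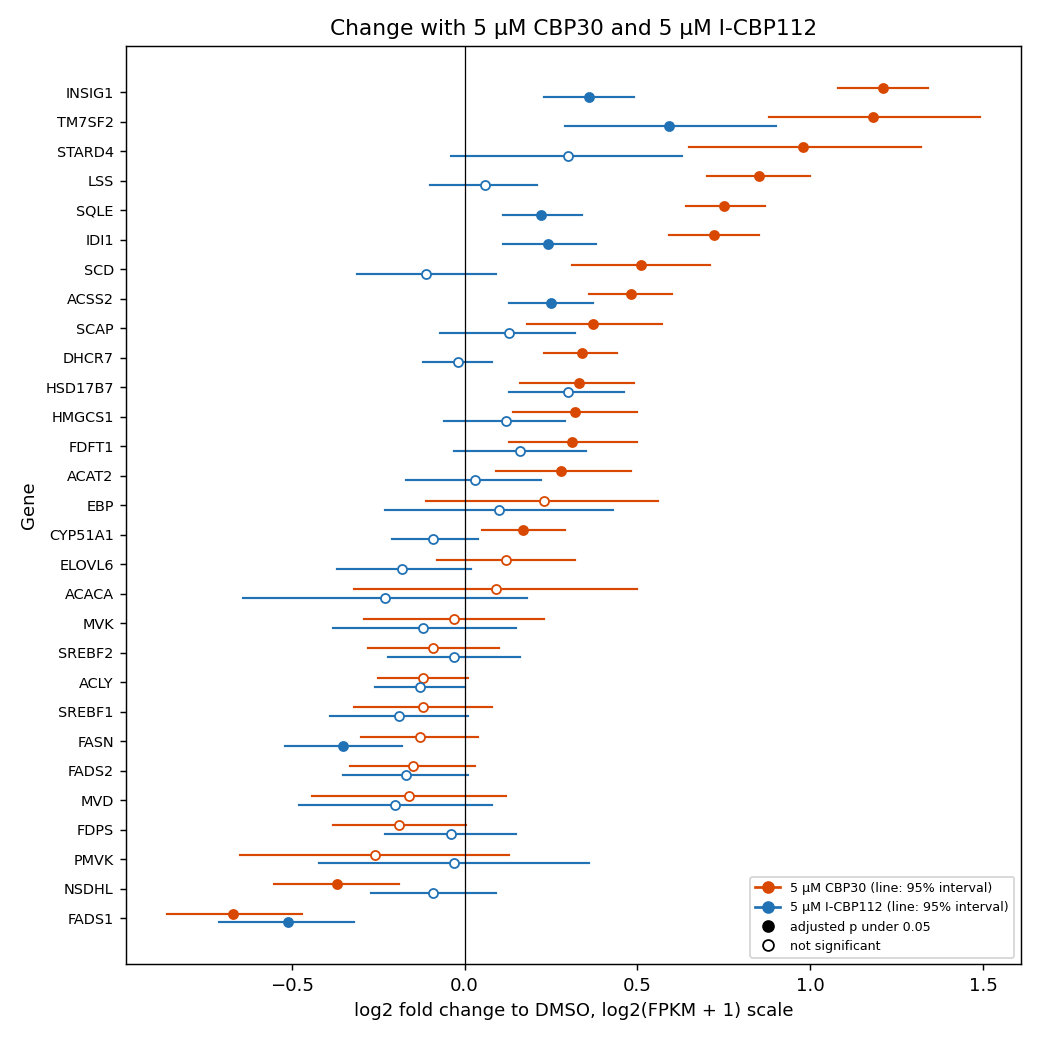
Log2 fold change to DMSO of the 29 genes for 5 µM CBP30 in orange and 5 µM I-CBP112 in blue, on the log2(FPKM + 1) scale, with lines for the 95% interval and filled points for an adjusted p under 0.05. Filled orange points run from 1.21 (INSIG1) down to −0.67 (FADS1), and filled blue points from 0.59 (TM7SF2) to −0.51 (FADS1).

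At 2 µM CBP30, 10 of the 29 genes were higher and 7 lower (34.5% and 24.1%), against 15.9% and 16.3% of all genes tested. The branches differed in direction: 7 sterol enzymes rose and 1 fell (median log2 fold change 0.24), while 6 of 8 fatty acid genes fell and 1 rose (median −0.34). The branches also differed in transcript length, as described below. The control genes had 2 higher, none lower. Without replicate 1, the counts were 6 higher and 1 lower for the sterol enzymes, 3 higher and 1 lower for the control genes, and again 6 lower and 1 higher for fatty acid synthesis. Of the 17 calls, 16 were kept in the same direction without replicate 1, and 2 other genes were called. TM7SF2, IDI1, INSIG1, SQLE, ACSS2, FADS1 and FASN kept the call with every library left out in turn.

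TM7SF2 had the highest fold change at 2 µM, with 14.2 and 10.6 FPKM against 4.77 and 4.43 in the controls (1.25 ± 0.129, adjusted p = 0.000754). IDI1 was at 51.9 and 47.1 FPKM (0.44), INSIG1 at 27.5 and 25.4 (0.40), FDFT1 at 207 and 176 (0.36), LSS at 9.24 and 9.04 (0.31) and SQLE at 75.4 and 70.5 (0.28), all higher than with DMSO (adjusted p = 0.00185 to 0.0152). ACSS2 (23.3 and 21.5 FPKM, 0.39), HSD17B7 (6.44 and 5.87, 0.34) and SCAP (33.1 and 27.5, 0.33) rose as well. EBP was called at 66.9 and 48.6 FPKM (0.48, adjusted p = 0.038) but not without replicate 1 (0.26, adjusted p = 0.0729). Without that library the log2 fold change was 1.06 for TM7SF2, 0.37 for IDI1, 0.35 for INSIG1 and for ACSS2 0.34. It was 0.29 for LSS, 0.28 for HSD17B7, 0.24 for FDFT1, 0.23 for SQLE and 0.20 for SCAP (adjusted p = 0.000814 to 0.0262).

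FADS1 was lowest again, at 20.4 and 24.8 FPKM (−1.03 ± 0.0828, adjusted p = 0.000282). FASN was at 40.5 and 46.1 (−0.57, adjusted p = 0.00166), SCD at 102 and 124 (−0.35), ELOVL6 at 22.8 and 27.9 (−0.34), ACLY at 58.0 and 64.0 (−0.29) and DHCR7 at 28.1 and 28.8 (−0.21), with adjusted p = 0.00814 to 0.0227 for the last 4. In every one of these both treated samples lay under both controls. ACACA was at 8.33 FPKM in replicate 1 and 13.4 in replicate 2 (−0.62, adjusted p = 0.0331), and its change without replicate 1 was −0.31 (adjusted p = 0.00727). The others were then −0.90 (FADS1), −0.48 (FASN), −0.22 (SCD and ACLY) and −0.20 (ELOVL6 and DHCR7), all still called (adjusted p = 6.43e-05 to 0.00927).

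The other 12 were not called at 2 µM. ACAT2 was at 39.6 and 34.0 FPKM (0.25), HMGCS1 at 43.3 and 51.0 (−0.12), MVK at 8.86 and 6.82 (0.10), PMVK at 27.9 and 18.3 (0.24), MVD at 25.5 and 19.2 (−0.01), FDPS at 117 and 97.3 (0.08) and CYP51A1 at 55.3 and 56.6 (0.09). PMVK, MVD and FDPS were above both DMSO samples in replicate 1 and within or below them in replicate 2. NSDHL was at 36.6 and 33.7 (−0.16), SREBF1 at 24.2 and 21.8 (−0.23), SREBF2 at 38.7 and 44.9 (−0.24), STARD4 at 12.8 and 17.9 (0.09) and FADS2 at 10.0 and 9.44 (−0.14). Without replicate 1, STARD4 was higher (0.31, adjusted p = 0.0444) and SREBF1 lower (−0.30, adjusted p = 0.0443). The other 10 remained uncalled, and the signs of MVK, PMVK and FDPS turned (−0.07, −0.05 and −0.05).

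These fold changes followed transcript length among the 29 genes (Spearman's rho = −0.631, given as a description, since the genes share libraries). The 12 genes with transcripts over 4000 nt had a median of −0.27 and the 17 shorter ones 0.25. Branch and length were nearly the same split. The 6 fatty acid genes called lower were all over 4000 nt, and ACSS2 and FADS2 were shorter (2885 and 3091 nt). Of the sterol enzymes, only HMGCS1 and LSS were over 4000 nt, and LSS rose. The part of length in the difference between the branches was not tested. Without replicate 1 rho was −0.423 (medians −0.21 and 0.14), and with the length trend of each library removed it was −0.437 (−0.18 and 0.13). In a fit of only the 2 groups compared, none of the 29 passed the limma test at 2 µM, with 13 at an unadjusted p under 0.05. The number called was 9 without DMSO replicate 1 and 8 without DMSO replicate 2.

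**Figure D3:**
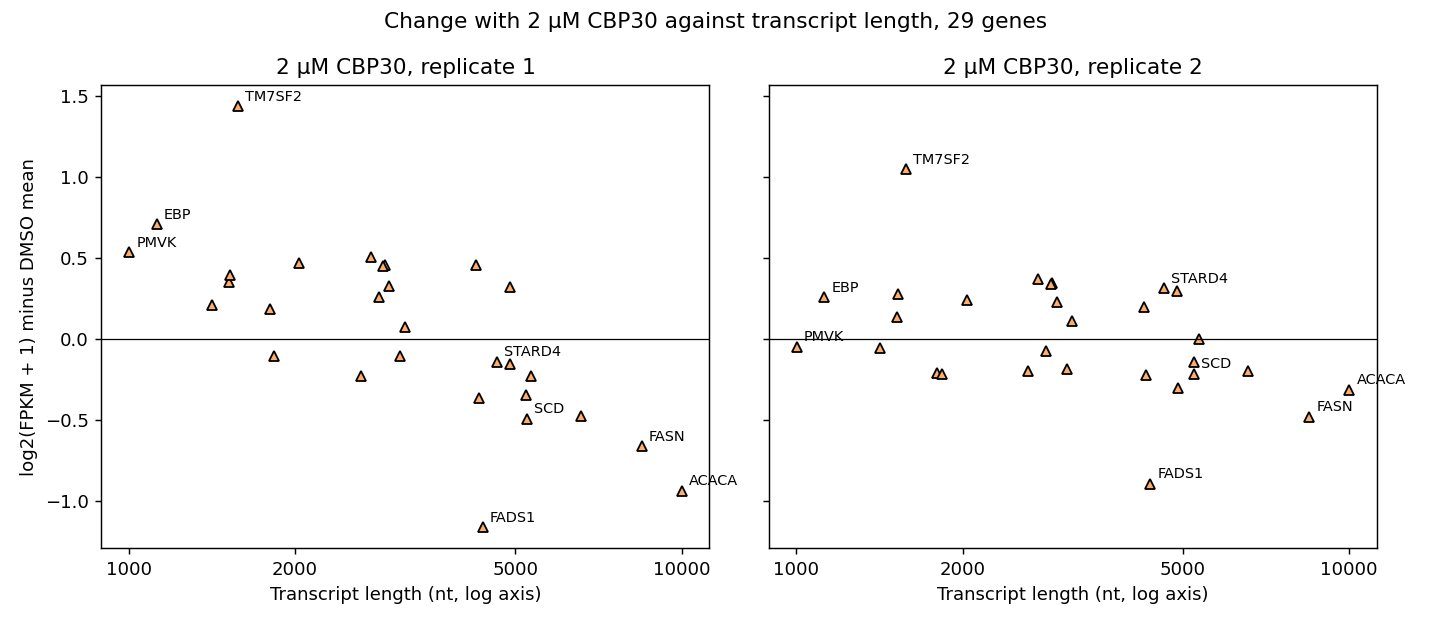
Change of the 29 genes with 2 µM CBP30, as log2(FPKM + 1) minus the DMSO mean, against transcript length in nt (log axis), with replicate 1 on the left and replicate 2 on the right. The slope is steeper in replicate 1, where PMVK and EBP lie above 0.5 and ACACA at the lower right, while TM7SF2 is at the top and FADS1 at the bottom in both.

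The concentrations of CBP30 were compared directly. Of the 29 genes, 13 were higher and 2 lower at 5 µM than at 2 µM (44.8% and 6.90%), against 17.6% and 21.3% of all genes tested, and 15 were higher and 1 lower without replicate 1 of 2 µM CBP30. The median was 0.11 for the 29 and −0.03 for all genes tested. With both replicates of 2 µM CBP30, the differences were largest for STARD4 (0.90 ± 0.142), SCD (0.86 ± 0.0852), INSIG1 (0.80 ± 0.0555) and ACACA (0.71 ± 0.175). Their limma adjusted p was 0.000447 to 0.0207. ACACA was at 8.33 FPKM in replicate 1 and 13.4 in replicate 2 of 2 µM CBP30, and STARD4 at 12.8 and 17.9. The size and order of these differences therefore depend in part on replicate 1. DHCR7 (0.55), LSS (0.54), SQLE (0.48), ELOVL6 (0.46), HMGCS1 (0.44), FASN (0.44), FADS1 (0.36), IDI1 (0.28) and ACLY (0.17) were also higher at 5 µM. Removal of the length trend ended the call for FASN (0.14, adjusted p = 0.107) and ACLY (0.09, adjusted p = 0.0577).

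SCD and DHCR7 were below DMSO at 2 µM and above it at 5 µM. SCD was at 78.5% of its DMSO mean at 2 µM and 142% at 5 µM, and DHCR7 at 85.7% and 127%. FADS1 and FASN were lower at 2 µM than at 5 µM, with FADS1 at 48.1% and 62.1% of DMSO and FASN at 66.8% and 91.0%. The difference between concentrations was not called for TM7SF2 (−0.07, 95% interval −0.37 to 0.24) or ACSS2 (0.08, −0.04 to 0.21). PMVK (−0.50, adjusted p = 0.0495) and FDPS (−0.27, adjusted p = 0.0406) were lower at 5 µM, but PMVK was not called without replicate 1 of 2 µM CBP30 (−0.21, adjusted p = 0.0632), and FDPS was at 0.0023 with the length trend removed. In a fit of only these 2 groups, none of the 29 passed (12 at an unadjusted p under 0.05). Without 5 µM CBP30 replicate 1 or 2, the number called was 8 or 7.

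**Figure D4:**
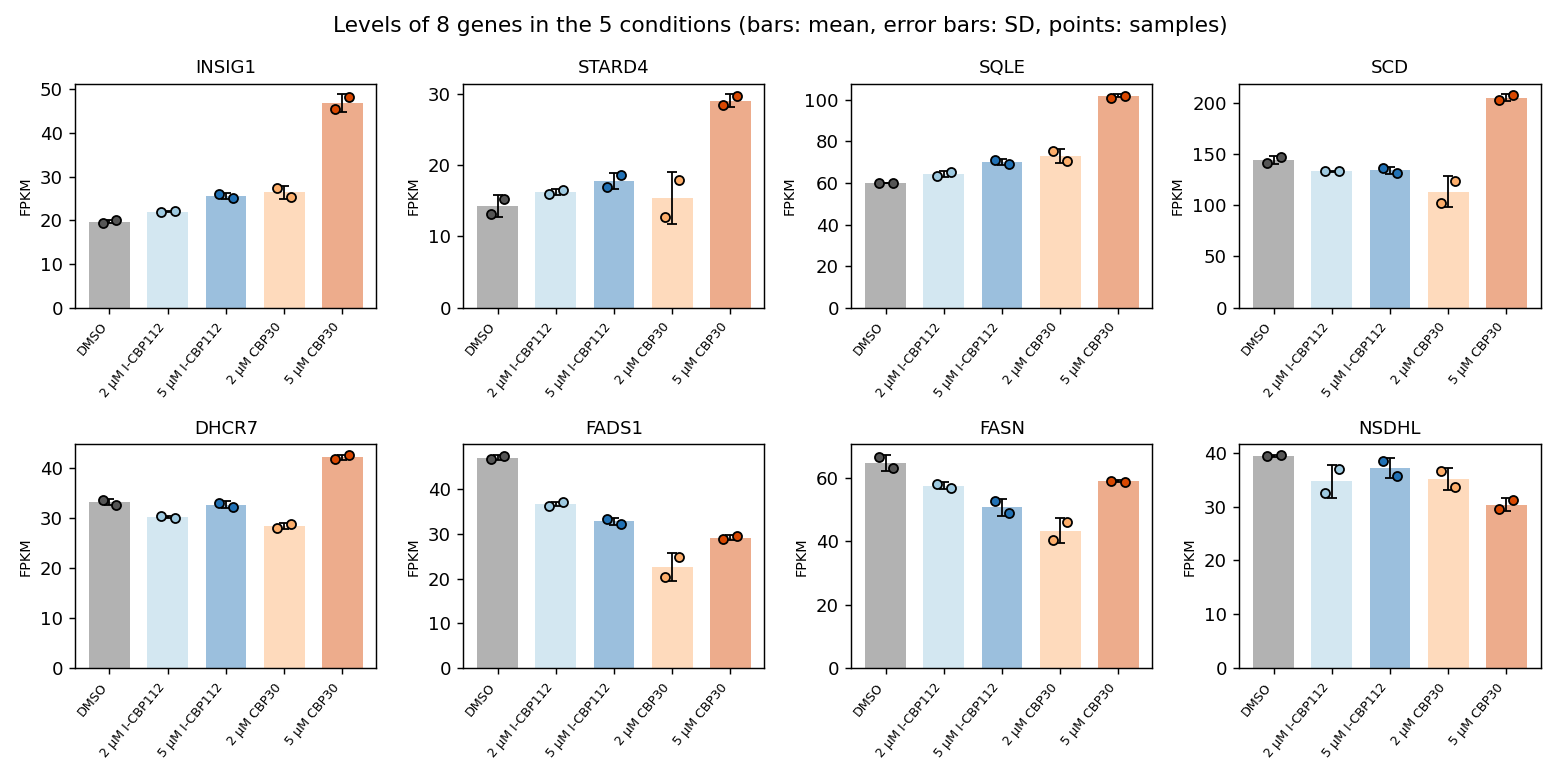
FPKM of 8 genes in the 5 conditions, with bars for the mean, error bars for the SD (n = 2) and points for the samples. INSIG1, STARD4 and SQLE are highest with 5 µM CBP30, SCD and DHCR7 lie below DMSO at 2 µM CBP30 and above it at 5 µM, FADS1 is below DMSO in all treatments, and NSDHL is lowest with 5 µM CBP30.

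I-CBP112 moved fewer of these genes. At 5 µM, 5 were higher and 2 lower (17.2% and 6.90%), against 3.84% and 3.28% of all genes tested, and the median was −0.03. TM7SF2 was at 7.55 and 7.34 FPKM (0.59 ± 0.129, adjusted p = 0.0396), INSIG1 at 26.1 and 25.2 (0.36 ± 0.0555, adjusted p = 0.0121), ACSS2 at 20.3 and 19.9 (0.25, adjusted p = 0.0355), IDI1 at 41.9 and 44.1 (0.24, adjusted p = 0.0499) and SQLE at 71.0 and 69.1 (0.22, adjusted p = 0.0407). FADS1 was at 33.2 and 32.1 FPKM (−0.51 ± 0.0828, adjusted p = 0.0147) and FASN at 52.7 and 48.8 (−0.35, adjusted p = 0.0345). In all 7 both treated samples lay outside the range of the controls.

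HSD17B7 at 5.89 and 6.01 FPKM fell just short (0.30, adjusted p = 0.0508). STARD4 was at 16.9 and 18.6 (0.30, 95% interval −0.04 to 0.63), LSS at 7.80 and 7.22 (0.06), SCD at 136 and 131 (−0.11) and DHCR7 at 33.1 and 32.2 (−0.02). The remaining 17 had log2 fold changes from −0.23 (ACACA) to 0.16 (FDFT1). The 7 calls were borderline: INSIG1 and FADS1 were kept in all 10 processing alternatives, but none was called by limma without DMSO replicate 1 or 2 or without I-CBP112 5 µM replicate 1 or 2 (8 to 10 at an unadjusted p under 0.05). Conversely, more were called without either replicate of 2 µM CBP30, and fewer without either replicate of 5 µM CBP30 or of 2 µM I-CBP112. The share over all genes in those fits is not given here, so this does not describe these genes in particular.

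With 2 µM I-CBP112, none of the 29 passed the limma test, against 1.6% of all genes tested, and 8 had an unadjusted p under 0.05. TM7SF2 was at 5.64 and 6.74 FPKM (0.36, 95% interval 0.05 to 0.66), INSIG1 at 22.0 and 22.1 (0.15, 0.02 to 0.28), ACSS2 at 18.6 and 19.0 (0.15, 0.03 to 0.28) and FADS1 at 36.2 and 37 (−0.35, −0.55 to −0.16). In these 4 both treated samples lay outside the range of the controls. Without either replicate of 2 µM CBP30, 4 genes were called, TM7SF2 and ACSS2 higher and FADS1 and ELOVL6 lower (adjusted p = 0.0038 to 0.0447). The 2 concentrations of I-CBP112 did not separate any of the 29 in limma, with 5 at an unadjusted p under 0.05, against 0.0626% of all genes tested by the adjusted p. The median difference was 0.05, and the interval for INSIG1 was 0.08 to 0.34.

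At 5 µM, CBP30 and I-CBP112 differed in 12 of the 29 genes, 11 higher and 1 lower with CBP30 (37.9% and 3.45%), against 13.6% and 17.9% of all genes tested. INSIG1 was higher with CBP30 by 0.84 ± 0.0555 on the log2 scale (adjusted p = 0.000132), LSS by 0.80 ± 0.0642, STARD4 by 0.68 ± 0.142, SCD by 0.61 ± 0.0852, TM7SF2 by 0.59 ± 0.129, SQLE by 0.53 ± 0.0486, IDI1 by 0.48 ± 0.0570 and DHCR7 by 0.36 ± 0.0432 (adjusted p = 0.000294 to 0.0139). ELOVL6 (0.29), CYP51A1 (0.26) and ACSS2 (0.23) were higher too, and NSDHL was lower (−0.28, adjusted p = 0.0298, or −0.16 and 0.0614 with the length trend removed). FADS1 was not called (−0.16, 95% interval −0.35 to 0.04), nor was HSD17B7 (0.03, −0.14 to 0.19). IDI1, SQLE, LSS, DHCR7, INSIG1 and SCD kept the call in every alternative and with every library left out. Fewer were called without either replicate of 5 µM CBP30 or of 5 µM I-CBP112, and more without either of 2 µM CBP30.

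At 2 µM, 9 genes were higher and 2 lower with CBP30 than with I-CBP112 (31.0% and 6.90%), against 7.13% and 8.45% of all genes tested, and 7 were higher and 4 lower without replicate 1 of 2 µM CBP30. TM7SF2 (0.89 ± 0.129, adjusted p = 0.00726) and IDI1 (0.39 ± 0.0570, adjusted p = 0.00728) were higher, as were ACAT2, FDFT1, LSS, INSIG1, ACSS2, CYP51A1 and SQLE by 0.18 to 0.34. FADS1 (−0.68 ± 0.0828, adjusted p = 0.00447) and FASN (−0.40 ± 0.0718, adjusted p = 0.0144) were lower. None passed in a fit of only these 2 groups (10 at an unadjusted p under 0.05). More were called without replicate 2 of 2 µM CBP30. Fewer were called without either DMSO sample, or without either sample of 5 µM CBP30, 5 µM I-CBP112 or 2 µM I-CBP112.

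Summed over each role, the sterol enzymes stood at 654 and 663 FPKM with DMSO. CBP30 gave 813 and 714 at 2 µM, then 788 and 794 at 5 µM. I-CBP112 gave 628 and 662 at 2 µM, then 702 and 684 at 5 µM. The fatty acid genes stood at 404 and 410 FPKM with DMSO. Here CBP30 gave 286 and 331 at 2 µM, then 446 and 451 at 5 µM, and I-CBP112 gave 371 and 368, then 365 and 351. The control genes and STARD4 stood at 137 and 132 FPKM with DMSO and at 178 and 179 with 5 µM CBP30, against 135 to 145 in the other treated samples. The sums are led by FDFT1, FDPS and SCD. The fatty acid sums were above both controls with 5 µM CBP30 and below them in the other treated samples. SCD alone carried the rise: the other 7 genes summed to 263 FPKM in both controls and to 243 and 244 with 5 µM CBP30, and were lower in the other treated samples as well (183 to 238).

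Other genes of the pathway, from a list made by function, were read alongside. The list was chosen with earlier results of these data known, so its shares are a description and not independent support. Of 8 further genes of sterol synthesis, other isoprenoid products and SREBP processing, 5 rose and 2 fell with 5 µM CBP30 (62.5% and 25.0%, against 21.2% and 25.4% of all genes tested). GGPS1, PDSS1 and DHDDS serve isoprenoid products other than sterol, and the genes that fell were PDSS1 and DHDDS. MSMO1, the C4 methyl oxidase, went from 14.0 and 14.4 to 23.7 and 24.9 FPKM (0.73, adjusted p = 9.71e-05), and INSIG2 from 6.52 and 6.45 to 10.2 and 11 (0.63, adjusted p = 0.000376). SC5D, the sterol C5 desaturase (SC5DL in the table), went from 5.42 and 5.53 to 8.0 and 8.85 (0.54, adjusted p = 0.00049). PDSS1, which makes the side chain of coenzyme Q and not sterol, fell from 15.6 and 14.4 to 8.12 and 8.46 (−0.79, adjusted p = 9.24e-05). Of this list, 3 rose and 1 fell with 2 µM CBP30 (37.5% and 12.5%, against 15.9% and 16.3% of all genes tested), or 4 and 1 without replicate 1. With 5 µM I-CBP112, 1 rose (12.5%, against 3.84%).

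Some values rest on shared sequence. ACAT2 shares 454 exonic bases with TCP1 on the opposite strand and SREBF1 shares 120 with RAI1, and CYP51A1 and EBP share 2827 and 642 with unnamed gene models on their own strand. Libraries were made with a kit that marks strand, but whether counting used it is not given in the sources used here. HSD17B7 and FDPS have pseudogene copies that can take or give reads, so their values are uncertain.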

How the data were processed

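RNA-seq of polyadenylated RNA from 10 K562 samples was used, with single reads from stranded libraries. The submitters' processing notes name FastQC, TopHat2 2.0.10, Bowtie 1.0.0, SAMtools 0.1.19, Cufflinks 2.2.1 and Cuffnorm on GRCh37 (hg19). The authors deposited 1 FPKM value per gene and sample, and replicates were not pooled. Depth is not held in FPKM, so the 2 samples of each condition set the precision. A change in a few abundant genes shifts all others in this unit.

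In R 4.3.3, limma 3.58.1 (lmFit, eBayes with trend) was fitted once to log2(FPKM + 1) of the 5 groups, for genes whose mean reached 0.5 FPKM, with 5 residual and 2.15 prior degrees of freedom. Adjusted p-values are Benjamini-Hochberg over the 12788 genes tested. Gene positions and transcript lengths came from GENCODE on GRCh37 (21409 genes matched), and promoters from RefSeq. The code was tested on simulated data. Figures were made in Python 3.11.15 with matplotlib 3.10.9. The members and lists were chosen with earlier results of these data known. All 29 members are named. Of each other list, at most 4 genes called with 5 µM CBP30 were chosen by adjusted p. Further genes of these lists are named to complete a count, to describe a list or because they were not tested. Alternatives were median centring, quantile normalization, a pseudocount of 0.1, a 5 FPKM filter or no filter, eBayes without trend, fitting only the groups compared, a replicate block, removal of the length trend with and without that block, and each library left out. Some genes of these pathways are not reported here.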

Additional observations from a re-analysis of the deposited data

Results flagged for a closer look

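SCD and DHCR7 were flagged because each was called in opposite directions at the 2 concentrations of CBP30, and the direct comparison of the concentrations was called as well. SCD was lower than DMSO at 2 µM (−0.35) and higher at 5 µM (0.51), a difference of 0.86 on the log2 scale between 5 and 2 µM (limma, adjusted p = 0.00142, both samples at 5 µM above both at 2 µM). DHCR7 was lower at 2 µM (−0.21) and higher at 5 µM (0.34), a difference of 0.55 (adjusted p = 0.000676, again with no overlap). Both differences were called in 19 of 20 alternatives, and not when just the 2 groups entered the fit (adjusted p = 0.114 for both genes). The calls below DMSO at 2 µM held less well. That of SCD was lost with quantile normalization (adjusted p = 0.0527), in a fit of 2 µM CBP30 and DMSO alone (0.18) and without DMSO replicate 1 (0.0716) or 2 (0.108), and that of DHCR7 in that fit (0.165) and without DMSO replicate 1 (0.0678).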

How the results depend on the processing

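Of 4640 values recomputed under an alternative, 4164 kept their direction and side of the threshold (109 of these with another sign, called in neither), 309 lost the call, 161 gained it and 6 turned. The fit of only the groups compared gave 0 called members for 2 µM CBP30 against DMSO, 0 for 5 against 2 µM CBP30, 22 for both compounds at 5 µM and 0 for both at 2 µM. For 5 µM I-CBP112 against DMSO, median centring gave 3 and removal of the length trend 11, and for 2 µM I-CBP112 that removal gave 3, or 2 with the block. The calls over all genes in a fit moved too. For 5 µM I-CBP112 they were 419 lower and 491 higher in the main fit, 384 and 487 with median centring, and 924 and 935 without the length trend.

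The replicate number as a block gave 2 called members for 5 µM I-CBP112 against DMSO. Same-numbered samples did not deviate together (correlations −0.0681 to 0.0939, 6 of 10 above 0). The labels name no batch, and these correlations cannot show whether same-numbered samples were handled together.

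With 1 library left out, where the lone sample is assumed to vary like the other groups, the called members ranged from 12 to 24 for 5 µM CBP30, 8 to 23 for 2 µM CBP30, 0 to 14 for 5 µM I-CBP112 and 0 to 4 for 2 µM I-CBP112. They ranged from 7 to 21 for 5 against 2 µM CBP30, 6 to 21 for the compounds at 5 µM and 1 to 24 at 2 µM, and stayed at 0 for 5 against 2 µM I-CBP112.

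For 5 against 2 µM CBP30, FDPS turned from −0.27 to 0.0023 without the length trend (also with the block), FDFT1 from −0.04 to 0.14 (quantile normalization, and without the length trend, with or without the block) and HSD17B7 from −0.01 to 0.24 (without the length trend). The cause was not tested. With no read counts, depth sets a limit that cannot be given here.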

Other observations

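Of 13 genes of mitochondrial fatty acid oxidation, 7 fell and 1 rose with 5 µM CBP30 (53.8% and 7.69%, against 25.4% and 21.2% of all genes tested), with a median log2 fold change of −0.22. With quantile normalization 5 fell and 1 rose, with a median of −0.13, and with the length trend removed the median was −0.12. CPT1A, which passes fatty acids into mitochondria as carnitine esters, went from 3.89 and 4.16 FPKM with DMSO to 2.08 and 1.95 (−0.74, limma adjusted p = 0.000276). HADHA, a subunit of the trifunctional protein, went from 168 and 174 to 120 and 123 (−0.49, adjusted p = 0.000815), SLC25A20, the carnitine carrier, from 18.6 and 18.5 to 14.4 and 14.1 (−0.36, adjusted p = 0.000568), and ACADM, a medium-chain dehydrogenase, from 80.0 and 79.6 to 70.1 and 67.5 (−0.21, adjusted p = 0.00736, or −0.10 and 0.115 with quantile normalization). With 2 µM CBP30, 1 fell and 1 rose (7.69% each, against 16.3% and 15.9% of all genes tested). More fell without replicate 1, where the share over all genes is not given here. With 5 µM I-CBP112 none was called by limma (1 at an unadjusted p under 0.05), against 3.28% lower and 3.84% higher over all genes tested.

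Of 10 tested genes of sterol uptake, storage and efflux, 5 fell and 2 rose with 5 µM CBP30 (50.0% and 20.0%). Of all genes tested 25.4% fell and 21.2% rose, so the second share is near that over all genes. The efflux genes ABCA1 and ABCG1 were below the filter and not tested. ABCA1 was at 0.159 and 0.115 FPKM with DMSO and 0.43 and 0.41 with 5 µM CBP30, and ABCG1 at no more than 0.0943 in any sample. NPC2, which carries cholesterol out of lysosomes, went from 19.3 and 18.7 to 60.4 and 63.4 FPKM (1.65, adjusted p = 0.000103) and was also higher with 5 µM I-CBP112 (36.2 and 33.8, 0.85, adjusted p = 0.0129). SOAT1, which esterifies cholesterol for storage, went from 9.27 and 9.49 to 19.3 and 19.2 (0.96, adjusted p = 8.41e-05). SCARB1, a lipoprotein receptor, fell from 32.0 and 30.4 to 23.3 and 24.2 (−0.38, adjusted p = 0.00151) and VLDLR, another, from 1.62 and 1.54 to 0.732 and 0.604 (−0.63, adjusted p = 0.00267). Of 14 tested genes of fatty acid elongation, activation and supply, 6 rose and 3 fell (42.9% and 21.4%, against 21.2% and 25.4% of all genes tested, the second near the share over all genes). ACSL5 of this list was below the filter and not tested. PTPLAD1 and TECR of elongation, ACSL4, ME1 and LPIN1 rose by 0.27 to 0.65 on the log2 scale, and ELOVL5 and MID1IP1 fell by 0.30 and 0.32, named after their values were seen, to complete the count. ACSL3, an acyl-CoA synthetase of lipid droplets, went from 50.5 and 52.5 to 92.5 and 96.4 (0.86, adjusted p = 9.2e-05) and ACSL1 from 30.8 and 31.8 to 22.2 and 22.1 (−0.48, adjusted p = 0.00064).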
